A study of Homo sapiens with 60 samples.

Results

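The 7 genes described here encode 2 receptors of the epidermal growth factor (EGF) receptor family, EGFR and ERBB2, and 5 of the ligands of that family, HBEGF, EREG, AREG, TGFA and NRG1. They were taken by Ensembl identifier from a table of 60675 genes measured in SW1783, a human astrocytoma line grown in L-15 medium. All 7 are in the table. In 6 of them the mean reached 1 CPM (counts per 1000000 of the library) in at least 1 of 20 treatment groups, and the same 6 were among 17792 genes that passed a filter on low counts. AREG did not.

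The cells were treated for 24 h, and each group was measured by RNA-seq in 3 libraries, 60 in all. The treatments were 10 µM wortmannin, a covalent inhibitor of phosphoinositide 3-kinases, water extracts of 6 medicinal herbs and the DMSO vehicle. Schisandrae Fructus, Aucklandiae Radix, Liriopis seu Ophiopogonis Tuber, Longan Arillus and Zizyphi Semen were given at 20, 100 and 500 µg/mL. Polygalae Radix was given at 10, 50 and 250 µg/mL. The doses are called low, medium and high below. DMSO in the vehicle is 0.1% by the sample labels but 2% by the description of the series, and its content in the other groups is not labelled. All titles carry the same batch letter, but the library names fall into numbered sets, in which vehicle and wortmannin each stand alone. Liriopis and Schisandrae share a set, as do Longan and Zizyphi, and Polygalae and Aucklandiae. A difference from vehicle therefore cannot be told apart from a difference between sets, whereas the doses of an extract share their set. Whether the 3 libraries of a group were grown as separate cultures is not labelled, so p-values measure the spread between these libraries, which may be technical.

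EGFR and ERBB2 are receptor tyrosine kinases. HBEGF, EREG, AREG and TGFA are made as membrane-anchored precursors that proteases of the ADAM family cut free, after which they bind EGFR, and NRG1 binds ERBB3 and ERBB4. ERBB2 has no ligand of its own and acts as the partner of the other family members. The bound receptors signal through adaptor proteins to the RAS, RAF and ERK cascade and to phosphoinositide 3-kinase, and ERK activity in turn raises transcription of several ligand genes, a loop known from epithelial cells and glioma cells. EGFR is amplified in many glioblastomas.

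Libraries held 9.34 M to 35.35 M expected counts (median 25.71 M). SW1783 expressed the mesenchymal markers VIM, FN1 and COL1A1 at 4790, 4600 and 3770 CPM under vehicle. Of 5 astrocyte markers SLC1A3, a glutamate transporter, had 31.5 CPM, while GFAP, S100B, AQP4 and ALDH1L1 never exceeded 8, 7, 2 and 4 counts in a library. The 3 epithelial markers EPCAM, CDH1 and KRT5 were near 0, with a summed group mean of 0.0113 to 0.176 CPM. Replicate 1 of Liriopis high dose stood apart: the mean correlation of its log2 CPM values with its group was 0.945, and its EGFR level was 88.1 CPM against 316 and 284 CPM in the other replicates. All libraries share 1 fit, so this library also bears on comparisons that do not hold Liriopis. Calls that change without it are given both ways. Shares of all genes called are those of the fit of all libraries. Counts of called genes without this library therefore have no matching share beside them. Whether such counts follow a gain in calls over all genes is not shown.

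On GRCh38, with GENCODE release 29 coordinates, EGFR (ENSG00000146648) lies at chr7:55019021-55211628 on the plus strand and ERBB2 (ENSG00000141736) at chr17:39687914-39730426 on the plus strand. HBEGF (ENSG00000113070) lies at chr5:140332843-140346631 on the minus strand and TGFA (ENSG00000163235) at chr2:70447280-70554193 on the minus strand. EREG (ENSG00000124882, chr4:74365143-74388751) and AREG (ENSG00000109321, chr4:74445134-74455009) are neighbours on the plus strand of chromosome 4, separated by 56382 bases. All are protein-coding, as is NRG1 (ENSG00000157168), whose position is given with its levels. The exons of ERBB2 overlap those of PGAP3 and MIEN1 on the opposite strand, with median counts of 361.5 and 978.5, and those of EGFR overlap the antisense gene EGFR-AS1, with a median count of 15. The strand setting of the counting is not given in the sources used here, so reads of ERBB2 and its overlapping neighbours may not be fully separated.

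The sequences before the starts of HBEGF and EREG are shown because these genes changed together across the treatments, and that of AREG because it is the neighbour of EREG and had almost no reads. Each is the 250 bases before the RefSeq start on GRCh38.p14, read along the gene. Capitals mark matches on either strand to 5 motifs: the AP-1 site TGANTCA, the CRE TGACGTCA, the GC box GGGCGG, the TATA box TATAAA and the CCAAT box CCAAT.
HBEGF promoter, chr5:140346604-140346853, minus strand: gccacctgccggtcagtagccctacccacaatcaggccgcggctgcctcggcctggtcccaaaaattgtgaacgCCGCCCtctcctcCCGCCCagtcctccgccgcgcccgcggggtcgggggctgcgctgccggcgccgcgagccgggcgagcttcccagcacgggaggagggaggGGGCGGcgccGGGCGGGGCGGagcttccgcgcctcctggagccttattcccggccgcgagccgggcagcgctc
EREG promoter, chr4:74364895-74365144, plus strand: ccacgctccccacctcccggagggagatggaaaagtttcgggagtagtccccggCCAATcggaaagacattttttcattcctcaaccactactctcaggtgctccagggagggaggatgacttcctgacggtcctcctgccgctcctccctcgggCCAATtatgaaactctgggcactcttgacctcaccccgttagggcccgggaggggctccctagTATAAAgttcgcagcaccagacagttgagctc
AREG promoter, chr4:74444886-74445135, plus strand: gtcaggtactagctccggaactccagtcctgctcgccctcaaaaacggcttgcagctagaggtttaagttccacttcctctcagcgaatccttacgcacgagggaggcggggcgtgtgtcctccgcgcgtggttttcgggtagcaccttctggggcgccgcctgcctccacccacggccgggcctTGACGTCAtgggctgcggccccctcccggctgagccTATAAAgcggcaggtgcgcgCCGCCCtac

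The HBEGF window held 5 GC boxes, of which the last pair overlaps by 1 base, and none of the other motifs. The EREG window held a TATA box that begins 32 bases before the start, 2 CCAAT boxes and no GC box. The AREG window held a CRE at 65 bases, a TATA box at 29 bases and a GC box at 9 bases before the start. Of 35116 promoter windows of the same length in the RefSeq table, 42.6% held a GC box, 10.7% a TATA box, 32.0% a CCAAT box, 6.57% an AP-1 site and 1.65% a CRE. The HBEGF and EREG windows had none of the 5 motifs in common. The windows of EGFR and TGFA, not printed, held 2 and 3 GC boxes and no other motif searched, and that of ERBB2 held 1 AP-1 site and 1 CCAAT box.

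Under vehicle, levels per kilobase of exon placed EGFR highest at 27.1 CPM per kb, followed by ERBB2 at 10.9, HBEGF at 8.89, TGFA at 3.36, NRG1 at 1.17 and EREG at 0.159 CPM per kb. AREG had 0 counts in all 3 vehicle libraries and 6 counts over all 60 libraries, never more than 1 in a library. A floor of 3 counts corresponds to 0.0858 to 0.316 CPM per library, so AREG could not be measured at this depth and has no comparison. EREG, which encodes epiregulin, was also sparse, with 5 to 62 counts per library and a median of 20. It reached a group mean of 1 CPM only after the high doses of Schisandrae (2.5 CPM), Aucklandiae (2.15 CPM) and Zizyphi (1.12 CPM). EREG thus met the 1 CPM rule only through these groups. Counts below that hold a rise of EREG in them are not independent of that rule. Beyond the listed ligands, EGF itself averaged 0.995 CPM and EPGN, which encodes epigen, 2.34 CPM under vehicle. NRG1 lies at chr8:31639386-32767959 on the plus strand of GRCh38. The receptors to which its product binds were close to absent, with at most 11 counts per library for ERBB3 and 3 for ERBB4.

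Across the 20 group means the receptors varied least and EREG most. The highest group mean was 1.3-fold the lowest for ERBB2, 1.84-fold for EGFR, 2.19-fold for NRG1, 2.58-fold for HBEGF, 2.62-fold for TGFA and 8.64-fold for EREG. For EGFR the value is set by the Liriopis library that stood apart, since Liriopis high dose was the lowest group. The EREG value rests on few reads, since its lowest group, Polygalae medium dose, had 5, 11 and 9 counts. EREG also met the 1 CPM rule only through its highest groups. Most of the order could not be resolved: of 19 pairs of neighbouring groups, 16 overlapped in their libraries for HBEGF and for EREG, and 18 for each of the other 4 genes. For HBEGF the high doses of Aucklandiae (42.8 ± 0.144 CPM, SD, n = 3) and Schisandrae (42.3 ± 2.62 CPM) overlapped each other and stood above all other groups, and Polygalae medium dose (16.6 ± 0.889 CPM) stood below all others. For TGFA only Schisandrae high dose (33.6 ± 0.515 CPM) was separated from its neighbour in the order, Aucklandiae high dose (21.9 ± 2.14 CPM). For EGFR only Aucklandiae high dose (422 ± 14.7 CPM) was separated, from Aucklandiae medium dose (365 ± 12 CPM).

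**Figure D1:**
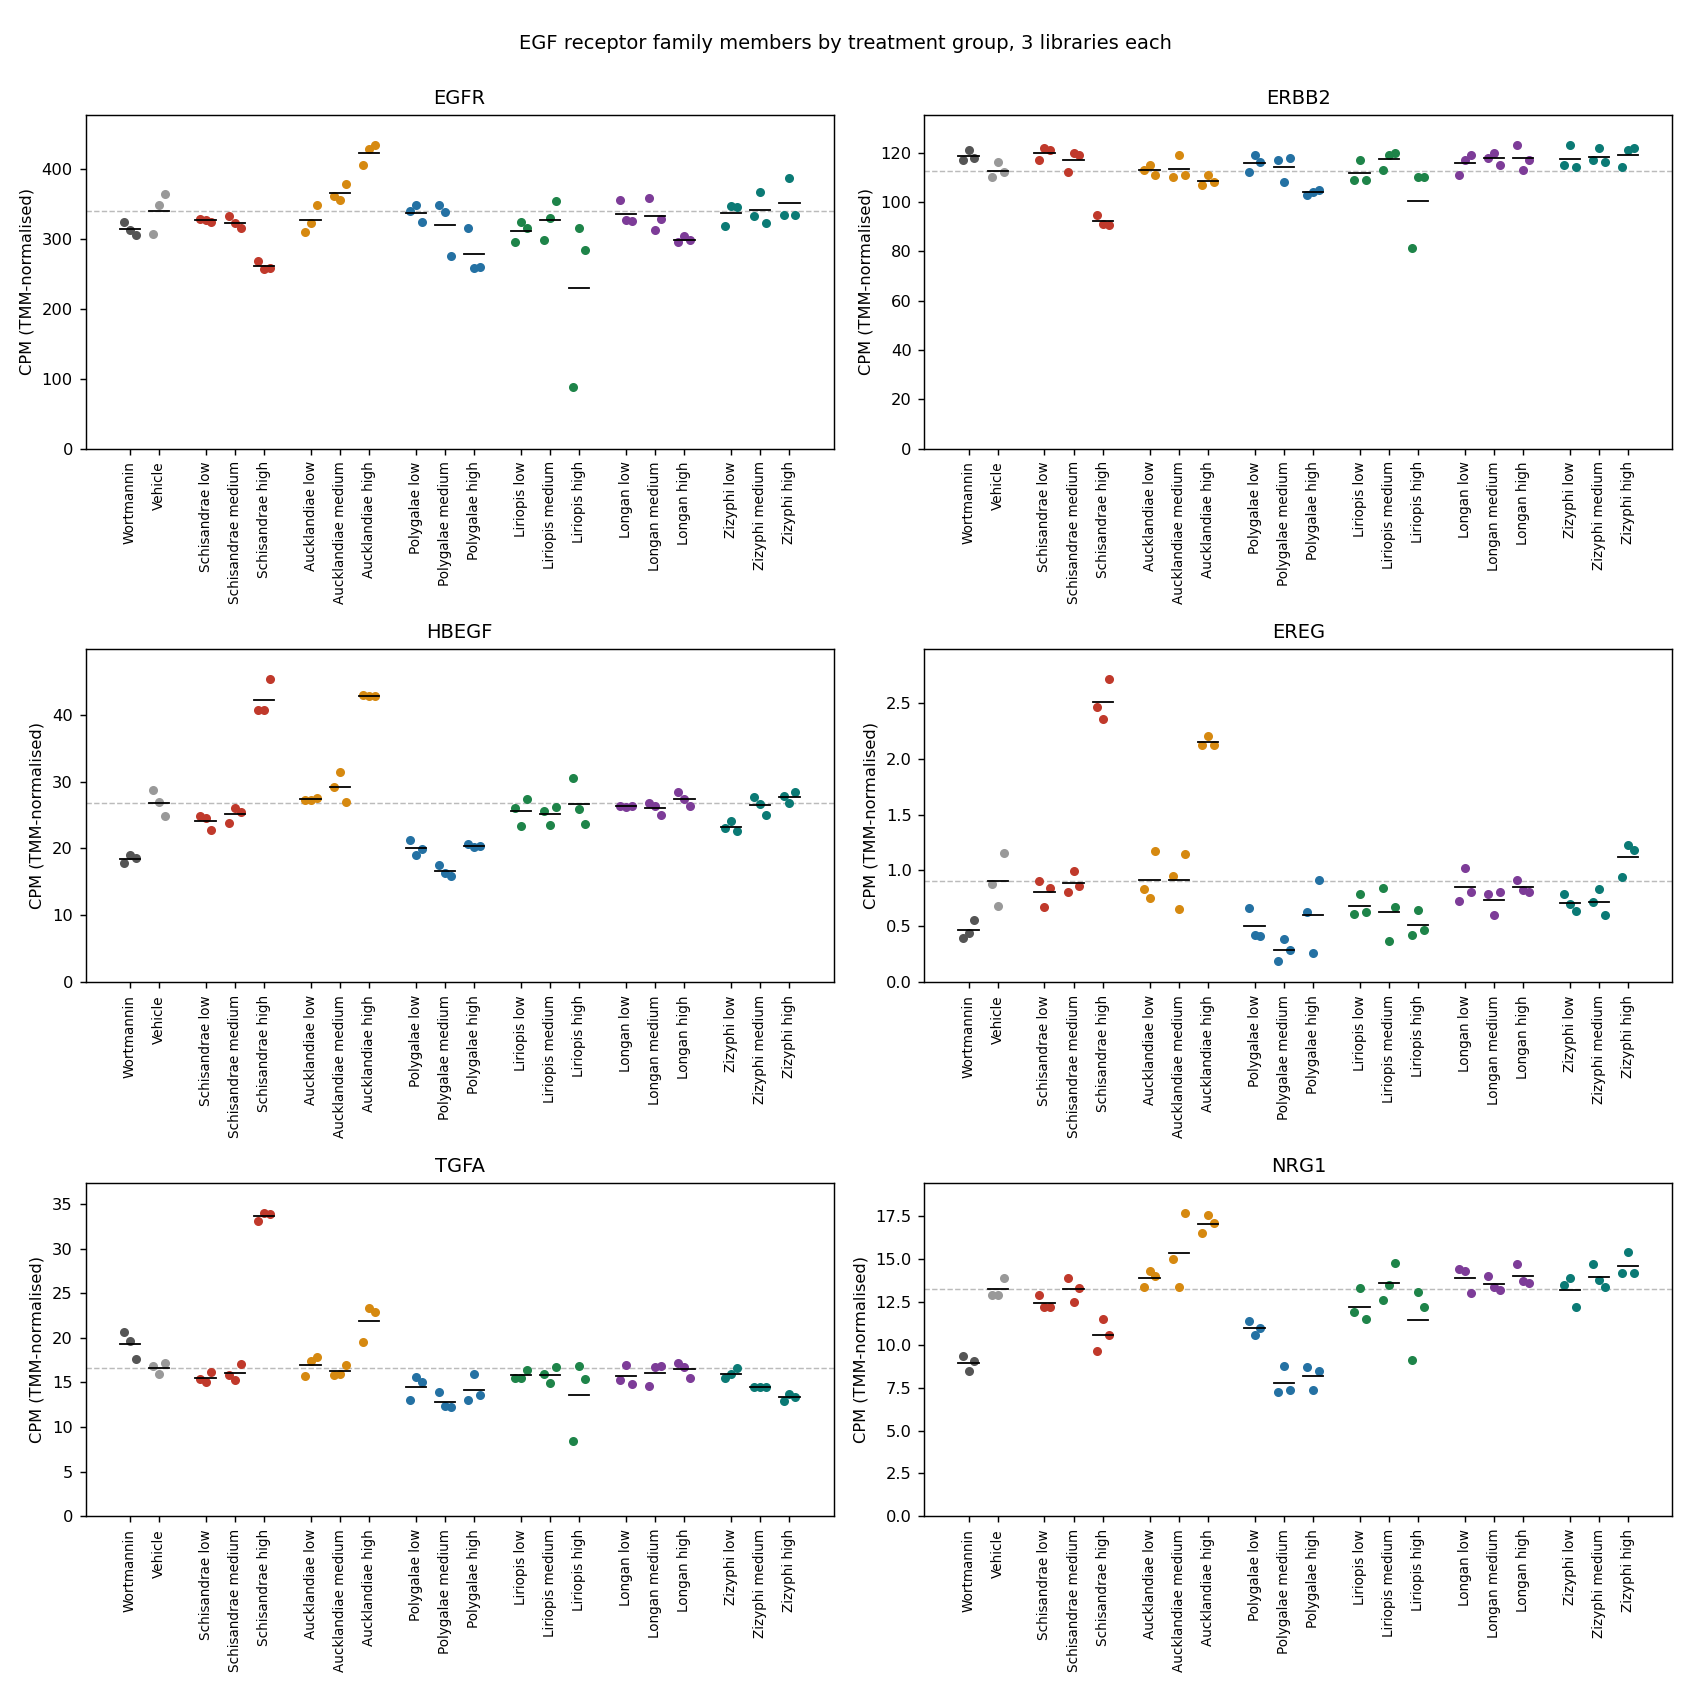
Levels of the 6 measurable genes in CPM (vertical axes, from 0) in each library (points) of the 20 groups, with the group mean (black bar) and the vehicle mean (dashed line). HBEGF and EREG are highest after Aucklandiae and Schisandrae high dose, TGFA after Schisandrae high dose (33.1 to 34 CPM), and 1 Liriopis high dose library is low for EGFR at 88.1 CPM.

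The high dose of Schisandrae raised 3 ligand genes and lowered both ERBB2 and NRG1. HBEGF, which encodes heparin-binding EGF-like growth factor, had 40.7, 40.7 and 45.3 CPM at the high dose, against 24.9, 24.5 and 22.8 CPM at the low dose. TGFA, the gene of transforming growth factor alpha, had 33.1, 34 and 33.9 CPM at the high dose, against 15.4, 15 and 16.2 CPM at the low dose. EREG had 2.46, 2.35 and 2.71 CPM at the high dose, against 0.904, 0.671 and 0.84 CPM at the low dose. In all 3 genes every high-dose library lay above every low-dose library. The log2 fold changes were 0.81 (SE 0.07) for HBEGF, 1.12 (SE 0.11) for TGFA and 1.64 (SE 0.24) for EREG, with Benjamini-Hochberg adjusted p from edgeR's quasi-likelihood test of 1.7e-14, 4.3e-12 and 1.1e-07.

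ERBB2 went the other way, with 94.8, 91.1 and 90.6 CPM at the high dose, against 117, 122 and 121 CPM at the low dose (log2 fold change -0.38, SE 0.06, edgeR adjusted p = 7.5e-07). NRG1, the gene of neuregulin 1, had 9.62, 11.5 and 10.6 CPM at the high dose, against 12.9, 12.2 and 12.2 CPM at the low dose, and fell by a small margin (log2 fold change -0.24, SE 0.09, edgeR adjusted p = 0.029). The NRG1 call was lost when any of 3 libraries was left out, with a log2 fold change of -0.17 and an adjusted p of 0.17 without replicate 1 of the high dose. It was also lost in the fit of all genes with any count (edgeR adjusted p = 0.056). EGFR had 269, 257 and 259 CPM at the high dose, against 328, 327 and 324 CPM at the low dose, and these libraries did not overlap. Its log2 fold change of -0.32 (SE 0.18) was not called with all libraries (edgeR adjusted p = 0.13), and it was called without the Liriopis library that stood apart (-0.34, adjusted p = 6.1e-05). In all, 5 of 6 genes were called, 3 higher and 2 lower, where 49.7% of all tested genes were called, 25.0% higher and 24.8% lower. EREG met the 1 CPM rule only through this and other high-dose groups, so its rise gives the count no separate support. The contrast was broad, so the count itself does not set the family apart. The SW1783 marker SLC1A3 moved with it, since the summed astrocyte markers were lowest of all groups at Schisandrae high dose (10.6 CPM, against 31.8 CPM under vehicle). So were the summed neuron markers (22.9 CPM, against 53.1 CPM under vehicle), while the summed oligodendrocyte markers were highest (12.8 CPM, against 7 CPM under vehicle). Under vehicle the neuron sum was mostly SYT1 (25.1 CPM) and SNAP25 (27.9 CPM). The neuron marker RBFOX3 had 0.111 CPM under vehicle and was lower in no group. The oligodendrocyte sum was mostly MBP (6.75 CPM under vehicle). The mitochondrial share of counts was 7.79% to 9.6% at Schisandrae high dose and 8.5% to 11.4% at the low dose. The part of these in the result was not tested. In bulk RNA a change in the RNA of each cell cannot be told apart from a change in which cells remained.

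Against vehicle the same 5 genes were called in the same directions at Schisandrae high dose, where 50.9% of all genes were called, 25.3% higher and 25.6% lower. The log2 fold changes were 0.65 (SE 0.07) for HBEGF, 1.47 (SE 0.23) for EREG, 1.01 (SE 0.11) for TGFA, -0.29 (SE 0.06) for ERBB2 and -0.32 (SE 0.09) for NRG1, with edgeR adjusted p of 8.2e-12, 6.6e-07, 5.1e-11, 8.1e-05 and 0.0026. Without the Liriopis library that stood apart EGFR was also called lower (-0.39, adjusted p = 6.1e-06). This made 6 of 6 genes, with no share of all genes from that fit beside this count. The low and medium doses of Schisandrae gave no call in the 6 genes against vehicle, where 0% and 1.02% of all genes were called, and none between the medium and the low dose (0.332% of all genes). The values separated only between the medium and the high dose. TGFA averaged 15.5 CPM at the low dose, 16.1 CPM at the medium dose and 33.6 CPM at the high dose. HBEGF averaged 24.1, 25.1 and 42.3 CPM at these doses. Liriopis was given at the same 500 µg/mL in the same library set. At that dose HBEGF, EREG and TGFA were higher after Schisandrae than after Liriopis by 0.67 (SE 0.07), 2.27 (SE 0.26) and 1.31 (SE 0.11) on the log2 scale, with edgeR adjusted p of 6.5e-12, 4.3e-10 and 8.3e-14. These were 3 of 6 genes, with 59.7% of all genes called and 27.7% called higher. Without the Liriopis library that stood apart 6 of 6 were called, with no share of all genes from that fit beside this count. The difference in EGFR was then -0.21 (adjusted p = 0.021), against 0.19 (adjusted p = 0.37) with it, and ERBB2 (-0.27, adjusted p = 7.9e-07) and NRG1 (-0.27, adjusted p = 0.01) were lower after Schisandrae.

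The high dose of Aucklandiae raised all 4 measurable ligand genes. HBEGF had 42.9, 42.7 and 42.8 CPM at the high dose, against 27.3, 27.3 and 27.6 CPM at the low dose. EREG had 2.12, 2.2 and 2.12 CPM at the high dose, against 0.837, 0.751 and 1.17 CPM at the low dose. TGFA had 19.5, 23.4 and 22.9 CPM at the high dose, against 15.7, 17.4 and 17.9 CPM at the low dose. NRG1 had 16.5, 17.6 and 17.1 CPM at the high dose, against 13.4, 14.3 and 14 CPM at the low dose. No high-dose library overlapped the low dose in any of these genes. The log2 fold changes were 0.64 (SE 0.07) for HBEGF, 1.23 (SE 0.24) for EREG, 0.37 (SE 0.11) for TGFA and 0.30 (SE 0.09) for NRG1, with edgeR adjusted p of 2.2e-10, 0.00019, 0.018 and 0.019. These were 4 of 6 genes, all higher, where 10.6% of all genes were called and 5.32% were called higher. Since EREG met the 1 CPM rule only through this and other high-dose groups, its rise gives the count no separate support.

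The TGFA and NRG1 calls lay near the threshold. Without replicate 2 or 3 of the high dose, or replicate 1 of the low dose, neither was called and the count fell to 2, while the log2 fold changes stayed at 0.31 to 0.34 for TGFA and 0.27 to 0.30 for NRG1. The NRG1 call was also lost in the fit of all genes with any count (edgeR adjusted p = 0.076). EGFR had 406, 428 and 434 CPM at Aucklandiae high dose, the highest of all groups, against 310, 323 and 348 CPM at the low dose. Its log2 fold change of 0.37 (SE 0.18) was not called with all libraries (edgeR adjusted p = 0.20) and was called without the Liriopis library that stood apart (0.37, adjusted p = 7.5e-05). ERBB2 had 107, 111 and 108 CPM at the high dose, against 113, 115 and 111 CPM at the low dose, a log2 difference of -0.06 with a 95% interval of -0.18 to 0.06. Against vehicle the same 4 ligand genes were called higher at Aucklandiae high dose, where 13.2% of all genes were called and 6.54% were called higher, with log2 fold changes of 0.67 for HBEGF, 1.24 for EREG, 0.40 for TGFA and 0.37 for NRG1. The TGFA call against vehicle was lost without replicate 2 of the high dose (0.35, edgeR adjusted p = 0.059). Without the Liriopis library that stood apart EGFR was called higher as well (0.32, adjusted p = 0.00057). No gene of the 6 was called at the low or medium dose, where 0.00562% and 0.455% of all genes were called, or between these doses (0.0169%).

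Schisandrae and Aucklandiae high dose thus both raised HBEGF, EREG and TGFA, and the difference between the high-against-low changes was tested directly. The change in TGFA was larger after Schisandrae by 0.74 on the log2 scale (SE 0.15, edgeR adjusted p = 0.00015). The changes in NRG1, ERBB2 and EGFR were lower after Schisandrae by log2 differences of -0.53 (SE 0.13), -0.32 (SE 0.08) and -0.69 (SE 0.25), with adjusted p of 0.00082, 0.0027 and 0.028. The EGFR call was lost without any of 3 libraries, with adjusted p of 0.051 to 0.065. For HBEGF the difference was 0.17 with a 95% interval of -0.02 to 0.36, and for EREG 0.41 with an interval of -0.27 to 1.1, so neither was called. In this comparison 4 of 6 genes were called, where 32.6% of all genes were, 15.8% higher and 16.8% lower. These extracts belong to different library sets, but each change was taken within its own set.

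Ligand genes were lower after Polygalae than under vehicle, which stands in another library set. HBEGF was already lower at the low dose of 10 µg/mL. HBEGF had 21.3, 19 and 19.9 CPM at the low dose, 17.6, 16.4 and 15.9 CPM at the medium dose and 20.6, 20.2 and 20.4 CPM at the high dose, against 28.7, 26.9 and 24.8 CPM under vehicle. All 9 Polygalae libraries lay below all 3 vehicle libraries, and the medium dose lay below both other doses. The log2 fold changes of HBEGF against vehicle were -0.42 (SE 0.07) at the low dose, -0.69 (SE 0.07) at the medium dose and -0.39 (SE 0.07) at the high dose, with edgeR adjusted p of 1.6e-05, 1.3e-11 and 2.7e-06. NRG1 had 11.4, 10.6 and 11 CPM at the low dose, 7.23, 8.76 and 7.36 CPM at the medium dose and 8.72, 7.36 and 8.48 CPM at the high dose, against 12.9, 12.9 and 13.9 CPM under vehicle. It was called lower at the medium dose (log2 fold change -0.76, SE 0.09, edgeR adjusted p = 4e-09) and the high dose (-0.69, SE 0.09, adjusted p = 1.7e-08), and at the low dose its value was -0.27 (SE 0.09, adjusted p = 0.066).

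EREG had 0.664, 0.421 and 0.419 CPM at Polygalae low dose, 0.195, 0.387 and 0.287 CPM at the medium dose and 0.632, 0.26 and 0.916 CPM at the high dose, against 0.877, 0.684 and 1.16 CPM under vehicle. The medium-dose libraries did not overlap vehicle, while the high-dose libraries spread from below 2 of the 3 medium-dose libraries to the vehicle range. The fall at the medium dose was called (log2 fold change -1.61, SE 0.30, edgeR adjusted p = 2.3e-05). At the low and high doses the values were -0.84 (SE 0.28, adjusted p = 0.056) and -0.61 (SE 0.27, adjusted p = 0.058). TGFA was called lower only at the medium dose (log2 fold change -0.38, SE 0.11, edgeR adjusted p = 0.0068). Called genes numbered 1 of 6 at the low dose, 4 of 6 at the medium dose and 2 of 6 at the high dose, all lower, where 6.46%, 30.1% and 46.1% of all genes were called and 3.46%, 14.9% and 22.9% were called lower. Without the Liriopis library that stood apart these counts were 3, 4 and 6, with EREG and NRG1 added at the low dose and EREG, TGFA, EGFR and ERBB2 at the high dose. The counts of that fit have no share of all genes beside them, so they are not read as a result about the family.

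Within the Polygalae set the high dose fell below the low dose in NRG1 (log2 fold change -0.43, SE 0.09, edgeR adjusted p = 0.00026) and in ERBB2 (-0.15, SE 0.06, adjusted p = 0.045), 2 of 6 genes, where 36.2% of all genes were called and 18.3% were called lower. ERBB2 had 103, 104 and 105 CPM at the high dose, against 112, 119 and 116 CPM at the low dose, and its call was lost when any of 5 of these 6 libraries was left out (adjusted p 0.065 to 0.13). The call was also lost in the fit of all genes with any count (edgeR adjusted p = 0.2). EGFR was also called lower without the Liriopis library that stood apart (-0.29, adjusted p = 0.00063). The medium dose was called below the low dose in HBEGF (-0.27, SE 0.07, edgeR adjusted p = 0.0045) and NRG1 (-0.50, SE 0.09, adjusted p = 0.00013), with 10.9% of all genes called and 5.70% called lower. HBEGF thus differed between the medium and the low dose but not detectably between the high and the low dose (0.03, 95% interval -0.11 to 0.16). The change in HBEGF between high and low dose was lower after Polygalae than after Aucklandiae, its set partner, by a log2 difference of -0.62 (SE 0.09, edgeR adjusted p = 1.4e-06), and that in NRG1 by -0.72 (SE 0.13, adjusted p = 2.1e-05). These were 2 of 6 genes, where 22.8% of all genes were called and 12.4% were called lower. Without the Liriopis library that stood apart 5 of 6 were called, HBEGF, NRG1, EGFR, EREG and TGFA, all lower, with no share of all genes from that fit beside this count. Against Polygalae the Schisandrae change was higher in HBEGF (0.79), EREG (1.41) and TGFA (1.15) and lower in ERBB2 (-0.23), with edgeR adjusted p of 2.3e-09, 0.0024, 4.3e-08 and 0.027. The ERBB2 call was lost in the fit of all genes with any count (adjusted p = 0.10) and when any of 6 libraries was left out (adjusted p 0.05 to 0.087). These were 4 of 6 genes, where 41.0% of all genes were called, 20.7% higher and 20.3% lower. The summed mesenchymal markers were lowest of all groups at Polygalae high dose (3790 CPM, against 13200 CPM under vehicle). So was the sum of 3 leukocyte markers (1.88 CPM, against 10.3 CPM under vehicle). Under vehicle that sum was almost all PTPRC, at 10.1 CPM. CD14 had 0.184 CPM under vehicle, and AIF1 never exceeded 2 counts in a library. The mitochondrial share of counts was 12.4% to 13.4% at Polygalae high dose, 7.87% to 11% at the low dose and 10.3% to 10.6% under vehicle, and the part of these in the results was not tested.

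HBEGF, EREG and NRG1 were lower after wortmannin than under vehicle, 2 groups that stand in different library sets. HBEGF had 17.8, 19.1 and 18.6 CPM after wortmannin, against 28.7, 26.9 and 24.8 CPM under vehicle. NRG1 had 9.36, 8.46 and 9.04 CPM after wortmannin, against 12.9, 12.9 and 13.9 CPM under vehicle. EREG had 0.399, 0.444 and 0.561 CPM after wortmannin, against 0.877, 0.684 and 1.16 CPM under vehicle. None of these groups overlapped. The log2 fold changes were -0.54 (SE 0.07), -0.56 (SE 0.09) and -0.94 (SE 0.27), with edgeR adjusted p of 8.1e-08, 1.5e-05 and 0.015. These were 3 of 6 genes, all lower, where 12.0% of all genes were called and 6.52% were called lower. The EREG call was lost without wortmannin replicate 1 (adjusted p = 0.087) or 2 (0.052), or without vehicle replicate 3 (0.13). It was also lost in the fit of all genes with any count (edgeR adjusted p = 0.079).

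TGFA was not among the ligand genes that fell after wortmannin. It had 20.6, 19.7 and 17.6 CPM after wortmannin, against 16.8, 16 and 17.2 CPM under vehicle, and although the libraries did not overlap the log2 difference of 0.21 was not called (95% interval -0.01 to 0.43, edgeR adjusted p = 0.24). Without the Liriopis library that stood apart it was called (0.20, adjusted p = 0.030). The receptors were not called either, with log2 differences of -0.11 for EGFR (95% interval -0.47 to 0.24) and 0.08 for ERBB2 (-0.04 to 0.2). Wortmannin and the medium dose of Polygalae were the groups with the lowest HBEGF, at 18.5 ± 0.64 and 16.6 ± 0.889 CPM (SD, n = 3 each). TGFA averaged 19.3 CPM in the wortmannin group and 12.8 CPM at Polygalae medium dose. Both comparisons use the same vehicle libraries, and the groups come from different library sets.

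**Figure D2:**
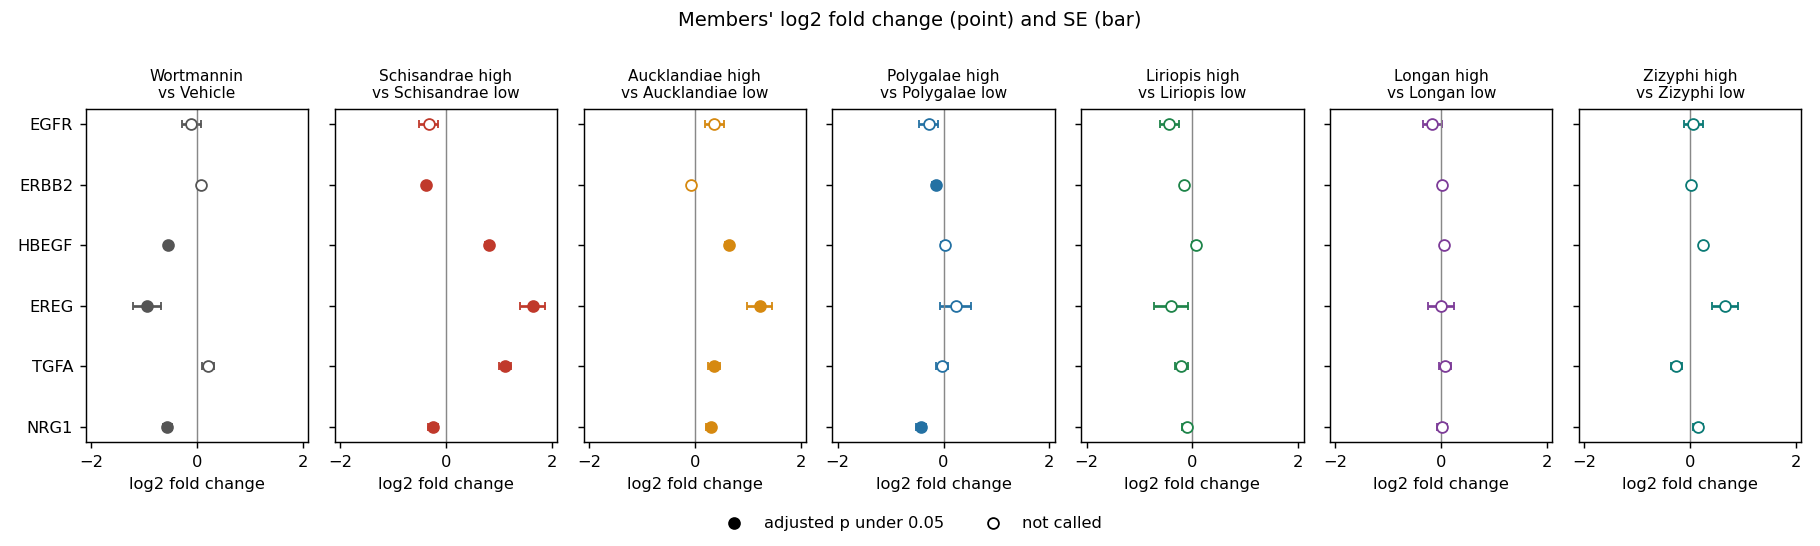
Log2 fold change (point) and its standard error (bar) of the 6 genes after wortmannin against vehicle and, for each extract, between its high and low doses, filled where the edgeR adjusted p was under 0.05. HBEGF is called in 3 of the 7 panels, at -0.54 for wortmannin, 0.81 for Schisandrae and 0.64 for Aucklandiae, and no gene is called for Liriopis, Longan or Zizyphi.

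With all libraries fitted, Longan and Zizyphi gave no call in the family against vehicle, and Liriopis gave calls that were lost without 1 library. For Liriopis high dose 4 of 6 genes were called lower than vehicle, EGFR, ERBB2, EREG and TGFA, where 34.0% of all genes were called and 15.2% were called lower. The libraries had 88.1, 316 and 284 CPM of EGFR and 8.43, 16.8 and 15.4 CPM of TGFA at Liriopis high dose, against 307, 348 and 364 CPM of EGFR and 16.8, 16 and 17.2 CPM of TGFA under vehicle. Replicate 1 was the low library in both genes, and without it 0 of the 6 genes were called. The log2 fold changes were then -0.18 for EGFR, -0.05 for TGFA and -0.03 for ERBB2. EREG kept a value of -0.70 (adjusted p = 0.68), and its Liriopis high dose libraries (0.427, 0.65 and 0.467 CPM) all lay below the vehicle libraries (0.877, 0.684 and 1.16 CPM). Between the high and the low dose of Liriopis no gene was called, where 16.1% of all genes were, and 2 of 6 had an unadjusted p under 0.05. The low and medium doses gave no call against vehicle (0.00562% and 0.0112% of all genes) or against each other (0%). Longan gave no call against vehicle, where 0.00562%, 0.0281% and 0.843% of all genes were called at the low, medium and high doses. It gave none between the high and low doses (0.247% of all genes) or the medium and low doses (0%). EGFR averaged 299 ± 4.26 CPM at Longan high dose and 336 ± 16.3 CPM at the low dose. The high-dose libraries (295 to 304 CPM) lay below all low-dose libraries (326 to 355 CPM) and all vehicle libraries (307 to 364 CPM). The log2 difference between the doses was -0.17 with a 95% interval of -0.52 to 0.19. That interval comes from the shared fit, which includes the Liriopis library that stood apart.

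Zizyphi also gave no call against vehicle, where 0%, 0.0393% and 0.607% of all genes were called at the low, medium and high doses. It gave none between its high and low doses (0.674% of all genes) or its medium and low doses (0.0112%). Its HBEGF libraries had 27.9, 26.8 and 28.5 CPM at the high dose, against 23.1, 24.1 and 22.6 CPM at the low dose, and did not overlap (log2 difference 0.25, SE 0.07, edgeR adjusted p = 0.057). EREG had 0.945, 1.23 and 1.18 CPM at the high dose, against 0.791, 0.701 and 0.641 CPM at the low dose (0.66, SE 0.25, adjusted p = 0.38). TGFA had 12.9, 13.7 and 13.4 CPM at the high dose, against 15.5, 15.9 and 16.6 CPM at the low dose (-0.26, SE 0.11, adjusted p = 0.50). In these 3 genes the unadjusted p was under 0.05, and without the Liriopis library that stood apart HBEGF (adjusted p = 0.0047) and TGFA (0.049) were called, as was TGFA against vehicle at the high dose (-0.32, adjusted p = 0.012). Between Zizyphi and Longan at 500 µg/mL no gene was called, where 1.01% of all genes were, and EGFR (0.24, adjusted p = 0.046) and TGFA (-0.29, 0.017) were called without that library.

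**Figure D3:**
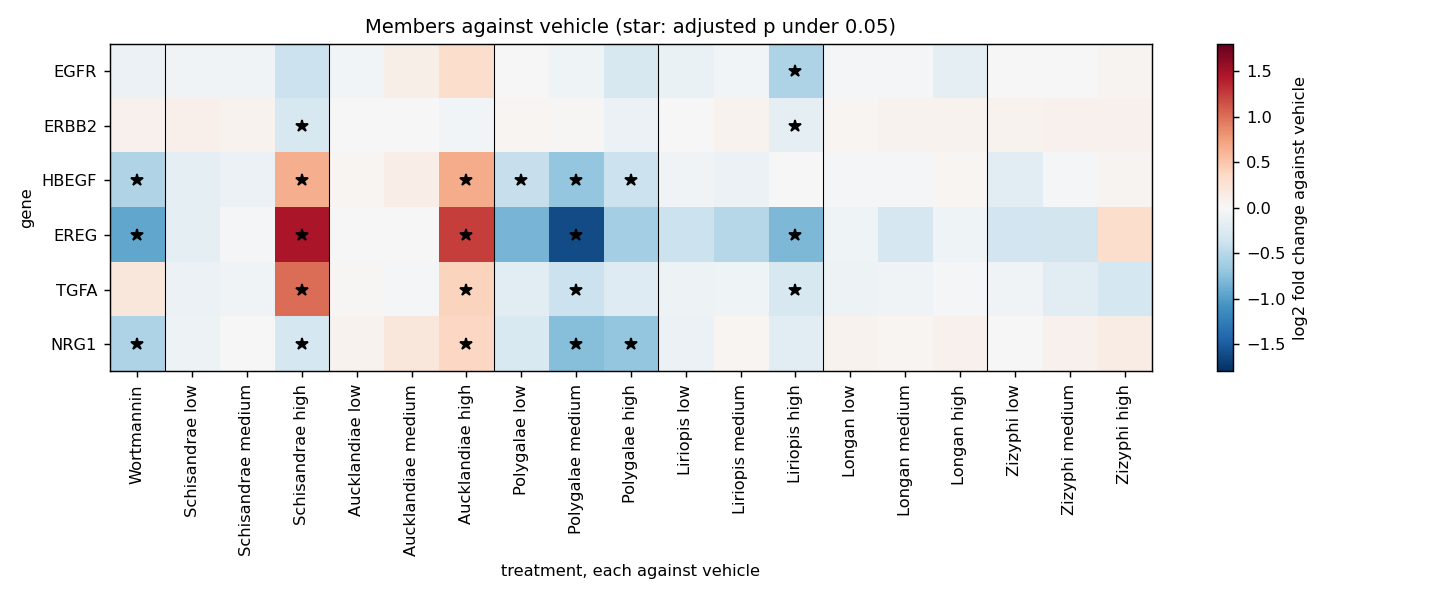
Log2 fold change against vehicle (colour scale) of the 6 genes (vertical axis) after wortmannin and each dose of each extract (horizontal axis), with a star where the edgeR adjusted p was under 0.05. Stars fall on wortmannin, on the high doses of Schisandrae, Aucklandiae and Liriopis and on all 3 doses of Polygalae; the 4 Liriopis stars vanish without replicate 1 of that group.

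The rest of the pathway was read from 5 lists with 54 genes, of which 51 were tested. Among other receptors and ligands, EPGN rose in both high-dose groups in which HBEGF rose. It averaged 7.46 CPM at Schisandrae high dose and 2.51 CPM at the low dose (log2 fold change 1.58, SE 0.17, edgeR adjusted p = 3.6e-11). After Aucklandiae it averaged 6.43 CPM at the high dose and 2.44 CPM at the low dose (1.41, SE 0.17, adjusted p = 1.4e-08). After Schisandrae high dose NRG2, a second neuregulin, fell to 0.477 CPM, against 1.08 CPM at the low dose (-1.18, adjusted p = 0.00069), and NRG4 had 0.604 CPM, against 0.205 CPM at the low dose (1.53, adjusted p = 0.017). That made 2 of 5 tested genes higher and 1 lower for Schisandrae, 1 of 5 higher for Aucklandiae and 0 of 5 for Polygalae between high and low dose, where 49.7%, 10.6% and 36.2% of all genes were called. EGF and BTC, the gene of betacellulin, were not called in these 3 comparisons.

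The list of ERK output held 15 genes, and ERK activity itself was not measured. The pathway lists were chosen with earlier results of these data known, so their counts against all genes are not independent support. Of these genes 12 were higher and 1 lower between Schisandrae high and low dose, where 25.0% of all genes were higher. The median log2 fold change was 0.85, and that of all genes was 0. PHLDA1 had 653 CPM at the high dose and 235 CPM at the low dose, and DUSP6, an ERK phosphatase, had 57 CPM at the high dose and 21.7 CPM at the low dose. MYC had 109 CPM at the high dose and 62.3 CPM at the low dose, and SPRY2, a feedback inhibitor of receptor signalling, had 43.9 CPM at the high dose and 24.3 CPM at the low dose. Their log2 fold changes were 1.48, 1.39, 0.81 and 0.85, with edgeR adjusted p from 6.3e-27 to 7e-17. DUSP4, also an ERK phosphatase, was the gene that fell (-0.24, adjusted p = 3.2e-05). For Aucklandiae 12 of 15 were higher and none was lower (median 0.54), against 5.32% of all genes higher, led by PHLDA1 (0.83), DUSP6 (0.98), DUSP5 (0.87) and SPRY2 (0.54).

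For Polygalae 11 of 15 were higher between high and low dose and none was lower (median 0.48), where 36.2% of all genes were called and 18.3% were called lower. In that comparison HBEGF, EREG and TGFA were not called and NRG1 was lower. PHLDA1 had 727 CPM at Polygalae high dose and 275 CPM at the low dose (log2 fold change 1.40), and DUSP4 had 215 CPM at the high dose and 117 CPM at the low dose (0.88). DUSP6 had 42.1 CPM at the high dose and 19.7 CPM at the low dose (1.09), and DUSP5 had 30.3 CPM at the high dose and 15.4 CPM at the low dose (0.97). The 4 genes were called with edgeR adjusted p from 6.7e-26 to 5.1e-16. At Polygalae medium dose HBEGF, EREG, TGFA and NRG1 were all lower than under vehicle. Of the ERK output genes 6 of 15 were called higher than under vehicle and 9 were not called (median 0.11), where 30.1% of all genes were called. PHLDA1 was among the higher genes (0.73, edgeR adjusted p = 7.6e-16). After wortmannin 4 of 15 were higher than under vehicle, DUSP4 (0.49), ETV4 (0.71), DUSP6 (0.40) and SPRY2 (0.27), and DUSP5 was lower (-0.25), where 12.0% of all genes were called. These counts were 6 higher and 2 lower without the Liriopis library that stood apart, and 7 higher and 2 lower when only these groups were fitted. No share of all genes from these 2 fits stands beside them. DUSP4 for Schisandrae and DUSP5 for wortmannin are named as the single genes that fell, and were chosen after their values were seen.

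Among 10 genes of ligand shedding, Schisandrae high dose raised RHBDF2 (iRhom2, a cofactor of ADAM17; log2 fold change 0.67, edgeR adjusted p = 3.1e-08), FRMD8 (0.27, 0.0028) and ADAM17 itself (0.45, 0.028) over the low dose, and lowered the metalloprotease inhibitor TIMP3 (-0.60, 7e-12), where 25.0% of all genes were higher and 24.8% lower. Aucklandiae high dose raised RHBDF2 (0.65, adjusted p = 7.2e-07) and lowered ADAM15 (-0.20, 0.0077), where 10.6% of all genes were called. For Polygalae 5 of 10 were lower and 1 was higher, where 18.3% of all genes were lower. ADAM9 had 290 CPM at the high dose and 484 CPM at the low dose (-0.74, adjusted p = 1.8e-07), ADAM12 had 214 CPM at the high dose and 323 CPM at the low dose (-0.59, 8.7e-06), ADAM15 had 58.3 CPM at the high dose and 72.6 CPM at the low dose (-0.32, 2.5e-06), and FRMD8 was the gene that rose (0.45, 2.7e-06). In the test of the difference between extracts, the Schisandrae change was above the Polygalae change in 5 of 10 shedding genes and below it in 1 (20.7% and 20.3% of all genes). The Polygalae change was below the Aucklandiae change in 4 and above it in 1 (12.4% of all genes were lower), and the Schisandrae change was below the Aucklandiae change in 1 (16.8% of all genes).

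Adaptors and inhibitors are read against the same shares of all genes, 49.7% called for Schisandrae, 10.6% for Aucklandiae and 36.2% for Polygalae. Of 10 adaptors, 7 were higher and none lower between Schisandrae high and low dose, among them GRB2 (183 CPM at the high dose and 130 CPM at the low dose, log2 fold change 0.50, edgeR adjusted p = 1.3e-14), CRK (0.24), GAB2 (0.96) and NCK1 (0.34). None was called for Aucklandiae, and 2 were higher and 1 lower for Polygalae, where SHC1 had 240 CPM at the high dose and 306 CPM at the low dose (-0.35, adjusted p = 8.4e-06). Of 11 inhibitors of the receptors, 7 were higher and 1 lower for Schisandrae. LRIG1, which promotes EGFR degradation, had 44 CPM at the high dose and 28.2 CPM at the low dose (0.64, adjusted p = 1.2e-08), and ERRFI1, a direct inhibitor of the EGFR kinase, had 120 CPM at the high dose and 83.9 CPM at the low dose (0.51, 2.1e-05). LRIG3 was the gene that fell (6.86 CPM at the high dose and 16.8 CPM at the low dose, -1.29, adjusted p = 1.3e-13). For Aucklandiae LRIG3 (-0.35) and SOCS3 (-0.23) were lower and no inhibitor was higher, and for Polygalae ERRFI1 was higher (142 CPM at the high dose and 88.2 CPM at the low dose, 0.68, adjusted p = 1.6e-07) and SOCS3 and RNF41 were lower. After wortmannin no adaptor, inhibitor or other ligand was called against vehicle, where 12.0% of all genes were called. Among the shedding genes FRMD8 (0.33) and TIMP3 (0.26) were higher after wortmannin. Without the Liriopis library that stood apart more list genes were called, with no share of all genes from that fit beside these counts. Whether the lists gained more calls than all genes did is therefore not shown. The counts were then 4 adaptors, 3 inhibitors, 4 shedding genes and 1 other ligand or receptor after wortmannin, 3 shedding genes higher and 4 lower for Schisandrae high against low dose, 3 adaptors higher and 2 lower and 3 inhibitors higher and 2 lower for Polygalae, and 1 adaptor, 2 inhibitors and 2 shedding genes higher and 2 inhibitors and 1 shedding gene lower for Aucklandiae. The ERK output counts between high and low dose were then 12 higher and 1 lower for Schisandrae, 13 higher for Aucklandiae and 12 higher for Polygalae.

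**Figure D4:**
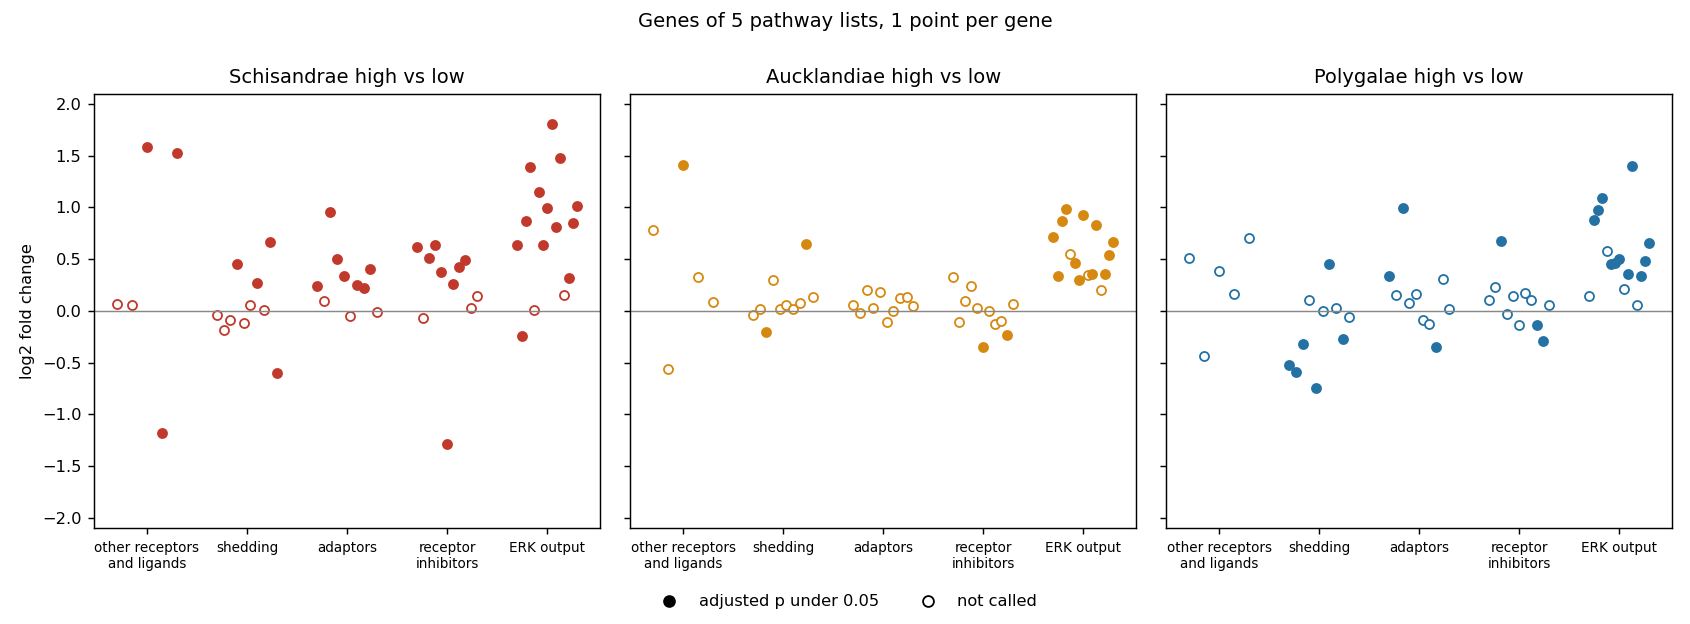
Log2 fold change between high and low dose (vertical axis) of each tested gene in 5 pathway lists (horizontal axis) for Schisandrae, Aucklandiae and Polygalae, filled where the edgeR adjusted p was under 0.05. ERK output genes lie mostly above 0 in all 3 panels, with 12, 12 and 11 of 15 called higher, while 5 of 10 shedding genes are called lower in the Polygalae panel.

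Across the 20 group means of log2 CPM, HBEGF and EREG were the pair of family members most alike (Pearson r = 0.94), followed by EREG and TGFA (0.76), HBEGF and TGFA (0.67), HBEGF and NRG1 (0.65) and EGFR and ERBB2 (0.6). TGFA and NRG1 were nearly unrelated (0.09), and ERBB2 ran against TGFA (-0.52) and HBEGF (-0.47). These values describe 20 groups that share library sets, and the high doses of Schisandrae and Aucklandiae weigh heavily in them. The group means also include the Liriopis library that stood apart. It had 88.1 CPM of EGFR, against 316 and 284 CPM in the other replicates. Its ERBB2 level was 81.4 CPM, against 110 CPM in each of the others. Neither these correlations nor the likeness below was computed without that library. Among 11056 other genes with a group mean of at least 5 CPM, the genes most like HBEGF were OSBPL6 (0.961), DVL1 (0.943) and ARF6 (0.927). Those most like EREG were ARF6 (0.954), HBEGF (0.939) and SETD3 (0.928), and those most like TGFA were SMURF2 (0.971), RAB3B (0.958) and TMEM245 (0.939). NRG1 was most like TWF1 (0.936), RRM2 (0.934) and ARHGAP26 (0.924). EGFR was most like PLXNA1 and ROCK2 (0.932 each) and ABHD2 (0.928), and ERBB2 most like CLEC16A (0.942), MAT2A (0.939) and UBE3B (0.936).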

How the data were processed

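RNA-seq was measured in 60 libraries of SW1783 cells, prepared with a directional mRNA kit and read in 100 bp pairs, per the labels' protocols. The authors deposited 1 table of expected counts. Trim Galore 0.6.5, STAR 2.7.3a, RSEM 1.3.3, FastQC 0.11.9 and GRCh38 are named in the submitters' processing notes. Which annotation release and strand setting were used is not given in the sources used here. In the table the authors deposited, 11.02% of expected counts were fractional, and all were rounded. Rounding and RSEM's sharing of ambiguous reads bear most on EGFR and ERBB2, whose estimates were not whole in 98.3% and 85% of libraries.

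Library totals ran from 9.34 M to 35.35 M. All libraries entered 1 fit in edgeR 4.0.16 (R 4.3.3): 20 group means, TMM scaling, genes kept by the expression filter at a minimum count of 10 (17792), 40 residual degrees of freedom, and a common dispersion of 0.00761, a coefficient of variation of 8.72%. Quasi-likelihood p-values were Benjamini-Hochberg adjusted over the 17792 genes, separately in 33 comparisons and 3 differences between comparisons, and called under 0.05. Standard errors were derived from each log2 fold change with its F statistic. CPM use TMM totals, and per-kilobase levels use the union of GENCODE 29 exons. Likeness used log2 CPM with a prior count of 2. All 7 genes matched by Ensembl identifier, and 6 of 7 were looked up in the RefSeq promoter table. The code was tested on simulated counts.

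The 7 genes and the pathway lists were chosen with earlier results of these data known. Named list genes were up to 4 per list and comparison with the smallest p, and likeness names the 3 genes with the highest r. Alternatives were another normalisation, no low-count filter, DESeq2 1.42.0, only the groups compared, a replicate block, leaving out the Liriopis library that stood apart and leaving out each library. A change of sign was counted as a reversal only where either value passed the threshold.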

Additional observations from a re-analysis of the deposited data

Results flagged for a closer look

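Tests of the difference between 2 extracts in their change from low to high dose marked 10 results among the 6 genes, with edgeR Benjamini-Hochberg adjusted p. The Schisandrae change exceeded the Polygalae change in HBEGF by 0.79 on the log2 scale (SE 0.09, adjusted p = 2.3e-09), in EREG by 1.41 (SE 0.38, adjusted p = 0.0024) and in TGFA by 1.15 (SE 0.16, adjusted p = 4.3e-08). In ERBB2 this difference was -0.23 (SE 0.08, adjusted p = 0.027).

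The Schisandrae change exceeded the Aucklandiae change in TGFA by 0.74 (SE 0.15, adjusted p = 0.00015), and the difference was -0.53 in NRG1 (SE 0.13, adjusted p = 0.00082), -0.32 in ERBB2 (SE 0.08, adjusted p = 0.0027) and -0.69 in EGFR (SE 0.25, adjusted p = 0.028). NRG1 moved in opposite directions, with a log2 fold change of -0.24 for Schisandrae high against low dose and 0.30 for Aucklandiae. The Polygalae change lay below the Aucklandiae change by -0.62 in HBEGF (SE 0.09, adjusted p = 1.4e-06) and by -0.72 in NRG1 (SE 0.13, adjusted p = 2.1e-05).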

How the results depend on the processing

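The HBEGF calls of wortmannin, Schisandrae, Aucklandiae and Polygalae kept their direction and stayed under the threshold in every alternative run, and so did the TGFA and EREG calls of Schisandrae high against low dose. Over the 6 genes and all comparisons, 1 value reversed: EGFR in Schisandrae against Liriopis high dose was -0.21 without Liriopis high replicate 1, and leaving out the other libraries in turn gave values up to 0.49. In comparisons that do not hold Liriopis high dose, leaving that library out of the shared fit added 20 calls and removed none. The 4 calls of Liriopis high dose against vehicle were lost without it, and calls were added in Schisandrae against Liriopis high dose. Among the other comparisons the count of called genes changed from 2 to 5 in the Polygalae and Aucklandiae difference. It changed from 2 to 6 for Polygalae high dose against vehicle and from 1 to 3 for Polygalae low dose against vehicle. It changed from 0 to 2 for Zizyphi against Longan and for Zizyphi high against low dose, and from 0 to 1 for Zizyphi high dose against vehicle. The cause of the other shifts was not tested, and counts from these other fits have no share of all genes beside them. Fitting only the groups compared gave 4, 5, 2, 1 and 1 called genes in the Polygalae and Aucklandiae difference, Polygalae high and low dose against vehicle, Zizyphi against Longan and Zizyphi high dose against vehicle, and 0 for Liriopis high dose against vehicle, where 4 were called. Without a low-count filter, counts were 2 for Liriopis high dose against vehicle, 1 for Liriopis high against low dose and 1 for Polygalae high against low dose. Other counts in that run stayed within 1.5 times the count with the filter, although single calls were lost. DESeq2's Wald test gave 4 in the Polygalae and Aucklandiae difference, 2 for Polygalae low dose against vehicle, 1 for Liriopis high against low dose and 1 for Zizyphi high against low dose, and DESeq2 size factors gave 5 in the Polygalae and Aucklandiae difference.

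Leaving out 1 library at a time gave 2 to 4 called genes for Aucklandiae high against low dose, 0 to 3 for Liriopis high against low dose, 0 to 5 for Liriopis high dose against vehicle, 2 to 4 in the Polygalae and Aucklandiae difference, 1 to 2 for Polygalae high against low dose, 1 to 2 for Polygalae low dose against vehicle and 3 to 6 for Schisandrae against Liriopis high dose. Depth limited EREG, with a median of 20 counts, and AREG, with 6 counts in all.

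Same-numbered replicates did not deviate together: no comparison had all 3 correlations above 0.1, and single values ran from -0.117 to 0.22. A fit with the replicate number as a block gave 4 called genes in the Polygalae and Aucklandiae difference, where 2 were called, and 1 for Zizyphi high against low dose, where 0 were called. With the block within library sets the counts were 4 for that difference and 1 for Liriopis high against low dose. All other counts with a block stayed within 1.5 times the count without it.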
